A study of Homo sapiens with 33 samples.

Results

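The data described here are 6 RNA sequencing libraries collected at day 8 of differentiation, 3 of cells in which FOXL2 had been switched on (IND) and 3 of cells in which it had not (CTRL), chosen by the day and treatment in their labels out of 33 libraries in the series. All libraries came from H9-FOXL2-DDdCas9VP192, a clone of H9, an established line of human embryonic stem cells, which carries a catalytically dead Cas9 fused to the VP192 activation domain and guide RNAs against the FOXL2 promoter. Doxycycline (DOX) drove expression of this activator and trimethoprim (TMP) stabilised it through its destabilising domain. IND cells received both drugs from day 4 onwards in the medium used to guide intermediate mesoderm towards gonadal progenitors, and CTRL cells passed through the same medium without either drug. Day 8 was also compared with the IND and CTRL libraries of days 6 and 10. The 3 libraries of a group were technical replicates of 1 experiment on 1 clone, so the p-values below measure the spread between these technical replicates, not between independent differentiations. No group received DOX and TMP without activation of FOXL2, and effects of the drugs, of the activator and of FOXL2 cannot be told apart in this design.

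FOXL2 is a forkhead transcription factor that marks the pre-granulosa lineage of the early ovary, the supporting cells that go on to surround the oocytes. The gonad arises from the coelomic epithelium, a layer marked by GATA4, WT1 and LHX9 that thickens over the mesonephros into the genital ridge. Cells leaving it pass through an early supporting stage before they commit to a granulosa fate, with RSPO1 and WNT4 signalling and FOXL2, or to a Sertoli fate under SOX9. The question was which genes had moved after the first days of FOXL2 expression, around the middle of the course.

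Total counts in genes ran from 36978300 to 44016987 in CTRL and from 36515950 to 47805809 in IND, and levels are given as CPM, the count relative to the TMM-scaled library total, as means ± SD over the 3 libraries of a group unless all values are listed. The first principal component, with 59.1% of the variance, separated IND from CTRL. The second, with 13.4%, set IND replicate 3 at 43.7 against values between -20.1 and 0.625 for the other libraries. Each library was left out in turn, and list counts that moved by more than 1.5 times without one are given with that library named by its group and replicate number, over the members tested with all 6 libraries. These are bulk samples, in which fewer cells of a type and less RNA per cell cannot be told apart.

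FOXL2 itself was close to absent in CTRL. The 3 CTRL libraries held 1, 4 and 2 FOXL2 counts and the 3 IND libraries 9599, 10161 and 15747. In IND this was 257, 267 and 329 CPM (284 ± 39.3), a log2 fold change of 12.19 (edgeR quasi-likelihood adjusted p = 3.06e-10). No SE is given for this value, because CTRL held so few counts. The ratio of the summed counts, scaled by the library totals of each group, was 4969 (exact 95% interval 2412 to 12361, counting error only). Both other genes at the locus were on in IND as well. FOXL2NB, the neighbour transcribed away from FOXL2, had 1, 1 and 0 counts in CTRL and 1414, 1701 and 2767 in IND. The ratio of its summed counts, scaled in the same way, was 2881 (exact 95% interval 797 to 23796). LINC01391, a long non-coding RNA downstream of FOXL2, had no count in any CTRL library and 1159, 1163 and 1716 in IND, at least 433-fold higher against a floor of 3 counts per library.

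FOXL2 lies on the minus strand of chromosome 3 at 138944224 to 138947140 (GRCh38), FOXL2NB on the plus strand at 138947234 to 138953451, and 93 bases separate them. LINC01391 lies on the minus strand at 138935189 to 138944020, 203 bases past the end of FOXL2, with its start 3.12 kb from that of FOXL2. Because the libraries did not keep the strand, reads that run past a gene's end could not be assigned to 1 of 2 neighbours by strand. The guide RNAs were designed against the sequence upstream of the FOXL2 start. The bases next to that start, which also lie next to FOXL2NB, are shown because both genes were on in IND. They are read from RefSeq (GRCh38.p14) on the FOXL2 strand, chr3:138947141-138947216, 76 bases, with a TATA tetramer in capitals.
FOXL2 upstream: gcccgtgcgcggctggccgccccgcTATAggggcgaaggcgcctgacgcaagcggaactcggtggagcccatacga

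Of 47 genes with a start within 1 Mb of the FOXL2 start, 21 could be tested, 4 rose and 1 fell. CLSTN2, a synaptic cadherin-related protein 988 kb away, fell from 37.9 ± 4.94 to 24.2 ± 1.17 CPM (log2 fold change -0.65). The tested genes nearest to the locus, among them CEP70, which had 55.7 ± 4.83 CPM in CTRL and 45.3 ± 5.55 in IND (adjusted p = 0.073), did not pass the test.

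Across the transcriptome, 2752 of 19433 tested genes (14.2%) differed between IND and CTRL at an adjusted p under 0.05, 1455 (7.49%) higher in IND and 1297 (6.67%) lower. The median log2 fold change of all tested genes was 0.0049, and the median size of the change was 0.79 among the genes called. The change was at least 2-fold for 1078 genes, 630 higher and 448 lower. Groups did not overlap for 99.5% of the called genes, against 33.2% of all tested genes. Protein coding genes were called in 16.6% of cases, long intergenic RNAs in 8.13% and antisense transcripts in 4.78%. The count depended on single libraries. Without IND replicate 3 it rose to 4732, of which 2459 (12.3%) were higher and 2273 (11.4%) lower. Leaving out CTRL replicate 1 gave 1382 calls and leaving out CTRL replicate 3 gave 1321. The count was 1817 when IND replicate 1 was dropped and 1513 when IND replicate 2 was. Of the 2752 genes, 2637 (95.8%) were called the same way without IND replicate 3 and none changed sign, and 1154 (496 higher, 658 lower) were called whichever library was left out. The plot of fold change against level shows the 3 genes of the FOXL2 locus apart from all others.

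**Figure D1:**
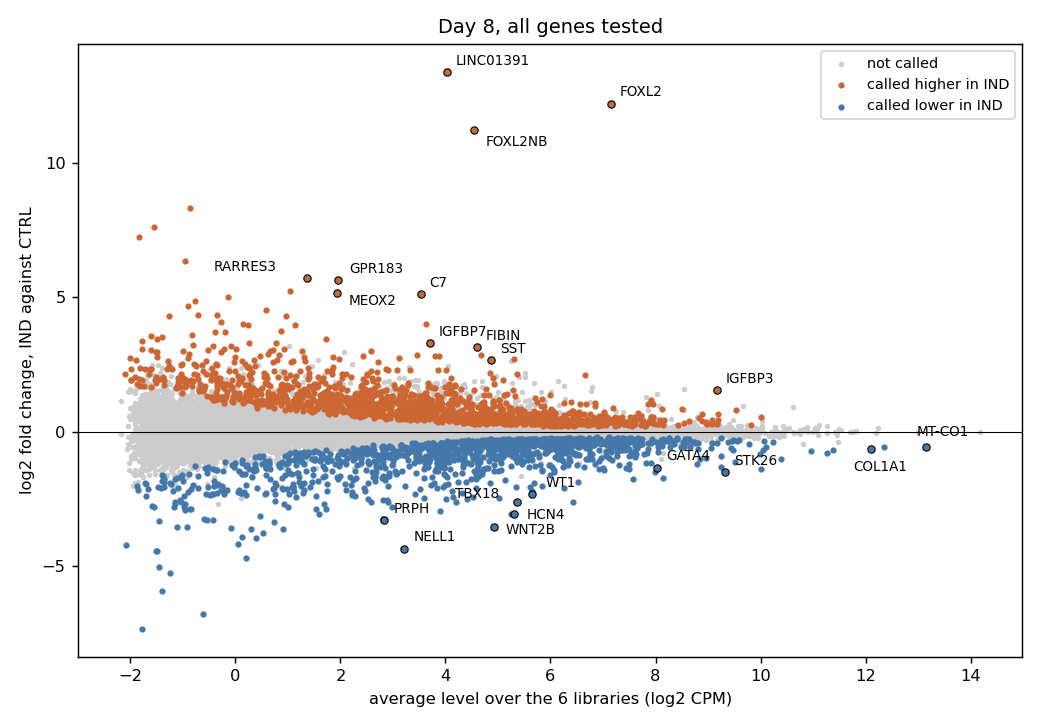
Each point is 1 of 19433 genes tested at day 8, with its average log2 CPM over the 6 libraries on the x axis and its log2 fold change (IND against CTRL) on the y axis. Where tested genes share a name, only the 1 with the highest mean CPM in CTRL is drawn. Orange marks genes called higher (1455 among all tested), blue genes called lower (1297 among all tested) and grey the rest. FOXL2, FOXL2NB and LINC01391 stand above 10.

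Genes were ranked by fold change among called protein coding genes with an average log2 CPM of 1 or more and no overlap between the groups. TLR3, described below, and the following genes had the largest rises beyond the locus. RARRES3, a phospholipase-like protein induced by retinoids and interferon, had 6, 4 and 1 counts in CTRL and 90, 169 and 375 in IND (adjusted p = 0.000371). GPR183, a chemotactic receptor for oxysterols, had 0.114, 0.172 and 0.165 CPM in CTRL and 5.29, 8.39 and 8.8 CPM in IND (log2 fold change 5.62, SE 0.319, adjusted p = 2.09e-06). MEOX2, a mesodermal homeobox factor of somites and vascular cells, had 0.0911, 0.172 and 0.358 CPM in CTRL and 4.79, 6.82 and 10.3 CPM in IND (log2 fold change 5.17, SE 0.444, adjusted p = 9.18e-05). Each was low in every CTRL library. C7, a terminal component of complement, had 0.501, 0.91 and 0.496 CPM in CTRL and 19, 30.3 and 17.8 CPM in IND (log2 fold change 5.13, SE 0.306, adjusted p = 1.58e-05). IGFBP7, a secreted IGF-binding protein of the matrix, had 1.78, 2.88 and 2.64 CPM in CTRL and 29, 27.7 and 14.1 CPM in IND (log2 fold change 3.28, SE 0.328, adjusted p = 0.000817). TMOD1, a capping protein of actin filaments, had 0.569, 0.468 and 0.606 CPM in CTRL and 5.91, 5.9 and 6 CPM in IND (log2 fold change 3.43, SE 0.218, adjusted p = 5.08e-06). ANGPTL6, a secreted angiopoietin-like protein, rose from 1.45 ± 0.501 to 23.1 ± 4.11 CPM (log2 fold change 3.99).

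Under the same limits, the 10 largest falls were the following. NELL1, a secreted protein of osteogenic and neural tissue, had 16.5, 14.8 and 21.7 CPM in CTRL and 0.401, 0.944 and 1.21 CPM in IND (log2 fold change -4.34, SE 0.322, adjusted p = 6.84e-05). WNT2B, a WNT ligand of mesenchyme, had 56.2, 42.7 and 69.3 CPM in CTRL and 3.42, 4.33 and 6.69 CPM in IND (log2 fold change -3.53, SE 0.299, adjusted p = 0.000844). HCN4, the pacemaker channel of the sinoatrial node, had 57, 76.9 and 77.1 CPM in CTRL and 6.95, 10.4 and 8.11 CPM in IND (log2 fold change -3.05, SE 0.172, adjusted p = 1.32e-05). No overlap between the groups was a condition for choosing all 10 genes. PRPH, the neuronal intermediate filament peripherin, fell from 12.9 ± 1.29 to 1.29 ± 0.939 CPM (log2 fold change -3.28). CNTN6, a neuronal adhesion molecule, fell from 12.6 ± 3.55 to 1.31 ± 0.345 CPM (log2 fold change -3.26). MOG, a myelin glycoprotein, fell from 5.29 ± 1.26 to 0.618 ± 0.317 CPM (log2 fold change -3.06). SLC18A3, the vesicular acetylcholine transporter, fell from 13.8 ± 3.78 to 1.99 ± 0.655 CPM (log2 fold change -2.79). NEUROG1, a proneural factor, fell from 5.53 ± 1.56 to 0.839 ± 0.464 CPM (log2 fold change -2.69). ARHGAP22, a Rac GTPase activator, fell from 67.8 ± 11.6 to 8.21 ± 1.94 CPM (log2 fold change -3.04). ISM1, a secreted signalling protein, fell from 26.3 ± 3.35 to 3.41 ± 1.99 CPM (log2 fold change -2.93).

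By amount of RNA, IGFBP3 gained most. IGFBP3, an extracellular carrier of IGFs, had 247, 315 and 321 CPM in CTRL and 818, 1004 and 739.5 CPM in IND (log2 fold change 1.54, SE 0.135, adjusted p = 0.000152). IGFBP2, a second IGF carrier, rose from 533 ± 98.2 to 942 ± 184 CPM (log2 fold change 0.82). DSP, the desmosomal linker desmoplakin, rose from 843 ± 53.2 to 1231 ± 14.3 CPM (log2 fold change 0.55). LAMB1, a laminin chain, rose from 456 ± 21.9 to 713 ± 72.2 CPM (log2 fold change 0.65). CPE, the prohormone-processing carboxypeptidase E, rose from 371 ± 23.1 to 580.5 ± 105 CPM (log2 fold change 0.65). FZD7, a WNT receptor, rose from 261 ± 15.9 to 468 ± 42.1 CPM (log2 fold change 0.84). NRP2, a co-receptor for semaphorins and VEGF, rose from 149 ± 11.5 to 337 ± 21.7 CPM (log2 fold change 1.18). ADAMTS1, a protease of versican, rose from 163 ± 20.8 to 334 ± 28.4 CPM (log2 fold change 1.03). IGFBP5, a further IGF carrier, rose from 498 ± 88.6 to 668 ± 41.2 CPM (log2 fold change 0.42). The call was lost on leaving out 1 library (adjusted p in brackets) for IGFBP2 without CTRL 1, CTRL 3, IND 1 or IND 2 (up to 0.0917), IGFBP5 without CTRL 1, CTRL 3, IND 1, IND 2 or IND 3 (up to 0.168) and CPE without CTRL 1 (up to 0.0569). The largest losses were in mitochondrial transcripts, given below with their group, and in matrix and surface genes. COL1A1, the main chain of type I collagen, fell from 5382 ± 448 to 3415 ± 539 CPM (log2 fold change -0.66). SPARC, a collagen-binding matricellular protein, fell from 2478 ± 189 to 1511 ± 250.4 CPM (log2 fold change -0.71). GPC3, a heparan sulphate proteoglycan of the cell surface, fell from 1804 ± 147 to 887 ± 29.5 CPM (log2 fold change -1.02). PODXL, a sialomucin of podocytes and stem cells, fell from 1480.1 ± 92.3 to 567 ± 76.8 CPM (log2 fold change -1.39). STK26, a kinase of the Ste20 family, had 935, 883 and 1034 CPM in CTRL and 286, 312 and 408 CPM in IND (log2 fold change -1.50, SE 0.129, adjusted p = 0.000107).

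**Figure D2:**
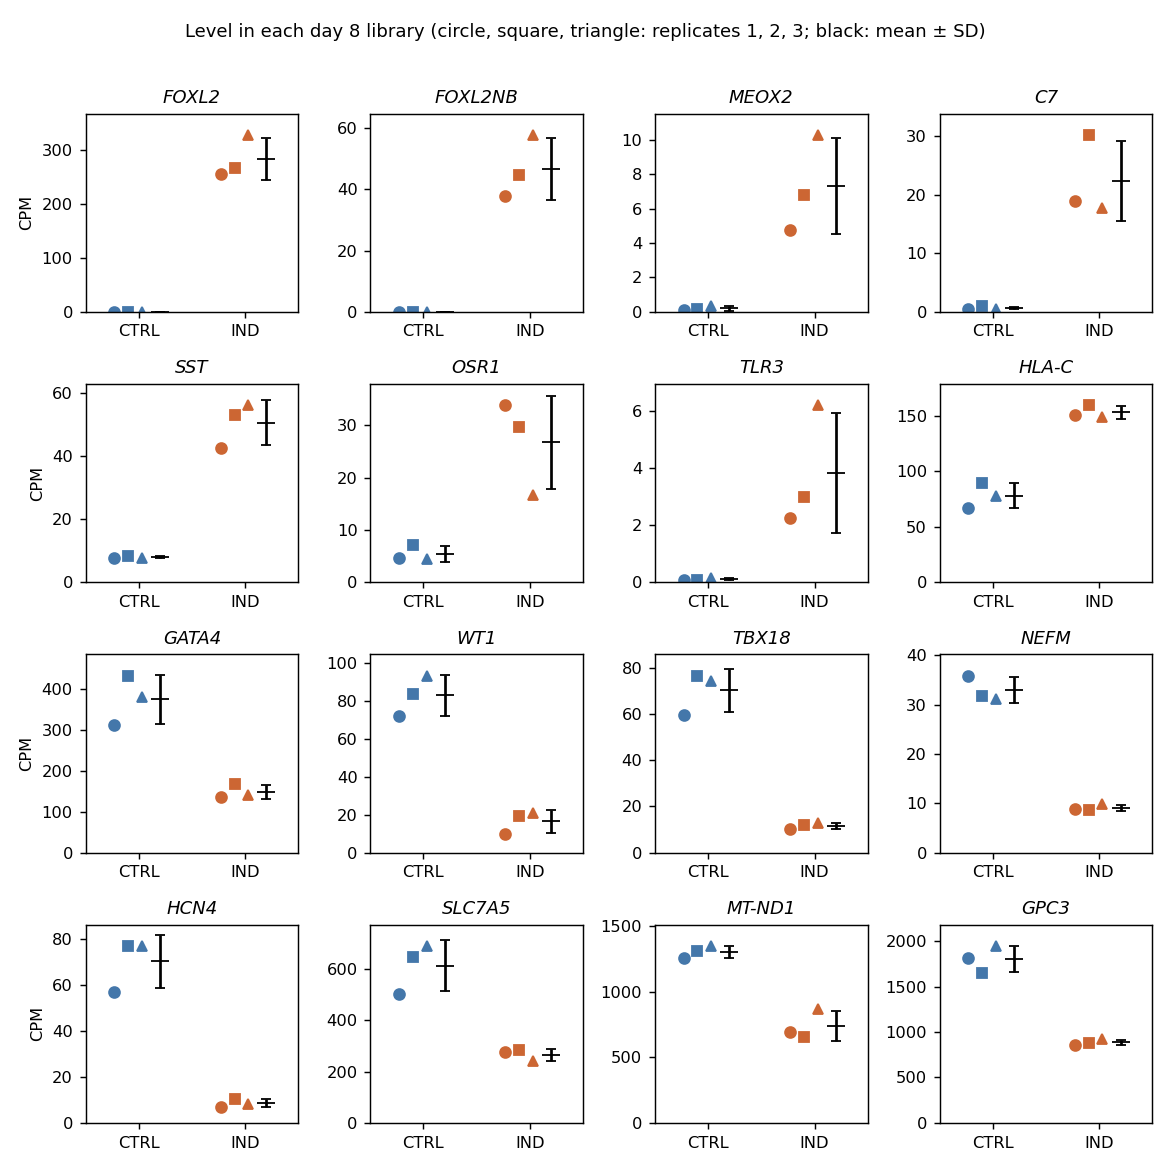
CPM of 16 genes in each of the 6 day 8 libraries, blue for CTRL and orange for IND, with the symbol giving the replicate and the black bar the mean ± SD of 3 libraries. Each axis starts at 0. The groups do not overlap for these genes, and in IND replicate 3 FOXL2 was the highest of the 3 IND libraries at 329 CPM.

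Among genes of the coelomic epithelium, more fell than rose. Of this list, 1 of 15 tested members rose, 7 fell and 7 did not pass the test (median log2 fold change -0.22). 2 rose without IND 3 and 4 fell without CTRL 2 or IND 2. The summed level of all members overlapped, at 3721, 5019 and 4605 CPM in CTRL and 5174, 4673 and 3840 CPM in IND. Among members not called, KRT19 and KRT8 had log2 fold changes of 0.43 and 0.23, and PKHD1L1 and PDPN had -0.22 and -0.18. GATA4, a zinc finger factor needed to start the genital ridge, had 311, 432 and 379 CPM in CTRL and 136, 167 and 141 CPM in IND (log2 fold change -1.34, SE 0.125, adjusted p = 0.000169). WT1, the Wilms tumour factor of coelomic epithelium and gonad, had 72, 83.8 and 93.5 CPM in CTRL and 9.54, 19.1 and 21 CPM in IND (log2 fold change -2.32, SE 0.307, adjusted p = 0.00692). CALB2, the mesothelial calcium-binding protein calretinin, had 9.88, 15.2 and 12.3 CPM in CTRL and 2.59, 1.6 and 2.28 CPM in IND (log2 fold change -2.53, SE 0.22, adjusted p = 3.88e-05). UPK3B, a uroplakin of mesothelium, fell from 5.92 ± 1.24 to 1.72 ± 0.977 CPM (log2 fold change -1.77). LHX9, a LIM homeobox factor of the genital ridge, was scarce, with 15, 37 and 18 counts in CTRL and 0, 0 and 7 in IND (adjusted p = 0.0284). LRRN4, a mesothelial membrane protein, fell from 95.1 ± 20.7 to 48.9 ± 10.4 CPM (log2 fold change -0.96). BNC1, the zinc finger factor basonuclin, fell from 251 ± 23.3 to 110.4 ± 40.6 CPM (log2 fold change -1.19). The member that rose was KRT7. KRT7, a simple epithelial keratin, rose from 4.82 ± 0.727 to 13 ± 4.37 CPM (log2 fold change 1.43). Single libraries decided the call (adjusted p without them in brackets) of LHX9 without CTRL 1, CTRL 2, CTRL 3, IND 1 or IND 2 (up to 0.0915), LRRN4 without CTRL 2, IND 1 or IND 2 (up to 0.0985) and BNC1 without CTRL 1, CTRL 2, CTRL 3 or IND 2 (up to 0.151).

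Transcription factors of the genital ridge did not move as 1 group. 2 of 12 tested members rose, 1 fell and 9 did not pass the test (median log2 fold change -0.04). 0 rose without CTRL 1, CTRL 3 or IND 2, 1 without IND 1 and 4 fell without IND 3. TBX18, a T-box factor of the coelomic epithelium and urogenital mesenchyme, had 59.7, 76.7 and 74.4 CPM in CTRL and 9.999, 11.8 and 12.8 CPM in IND (log2 fold change -2.60, SE 0.123, adjusted p = 7.12e-07). CBX2, a Polycomb subunit, rose from 152 ± 6.96 to 187 ± 19.1 CPM (log2 fold change 0.30). Leaving out 1 library took the adjusted p past 0.05 for CBX2 without CTRL 1, CTRL 3, IND 1 or IND 2 (up to 0.168). EMX2, a homeobox factor of the urogenital ridge, had 0.692 ± 0.222 CPM in CTRL and 0.911 ± 0.135 CPM in IND (adjusted p = 0.521). NR5A1, the steroidogenic factor that follows genital ridge formation, was below the filter, with 7, 9 and 2 counts in CTRL and 11, 13 and 6 in IND. LHX2, a LIM homeobox factor, had 20.6 ± 10.4 CPM in CTRL and 9.52 ± 4.59 CPM in IND (adjusted p = 0.274). GATA2, a GATA factor, had 6.23 ± 0.328 CPM in CTRL and 4.16 ± 0.818 CPM in IND (adjusted p = 0.0577). TCF21, a mesenchymal bHLH factor, had 12.2 ± 2.43 CPM in CTRL and 9.22 ± 1.66 CPM in IND (adjusted p = 0.172).

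Markers of early supporting and pre-granulosa cells changed often and in both directions. Of them, 11 of 22 tested members rose, 4 fell and 7 did not pass the test (median log2 fold change 0.42). 6 rose without CTRL 3 and 7 without IND 1 or IND 2. OSR1, a zinc finger factor of intermediate mesoderm and early supporting cells, had 4.6, 7.19 and 4.4 CPM in CTRL and 33.9, 29.6 and 16.7 CPM in IND (log2 fold change 2.30, SE 0.318, adjusted p = 0.00468). TAC1, the precursor of substance P, had 0.137, 0.0984 and 0.165 CPM in CTRL and 0.882, 1.57 and 1.27 CPM in IND (log2 fold change 3.20, SE 0.428, adjusted p = 0.000622). KITLG, the KIT ligand that granulosa cells provide to germ cells, rose from 51.4 ± 5.26 to 84.2 ± 8.92 CPM (log2 fold change 0.71). IRX3, an Iroquois factor of granulosa cells, rose from 39.8 ± 4.7 to 62.7 ± 8.68 CPM (log2 fold change 0.66). NRG1, an EGF-family ligand, rose from 6.11 ± 1.08 to 13.2 ± 3.8 CPM (log2 fold change 1.11). LGR5, an R-spondin receptor, rose from 3.44 ± 0.394 to 8.03 ± 3.9 CPM (log2 fold change 1.22). BMP2, a BMP ligand of the ovary, rose from 8.48 ± 2.22 to 25.4 ± 8.86 CPM (log2 fold change 1.58). SOX4, a SoxC factor, rose from 441 ± 29.9 to 554 ± 57.4 CPM (log2 fold change 0.33). RSPO1 had the smallest p among those that fell. RSPO1, the R-spondin that leads WNT signalling in the ovary, had 19.8, 19 and 23.5 CPM in CTRL and 9.09, 9.52 and 7.77 CPM in IND (log2 fold change -1.24, SE 0.129, adjusted p = 0.000125). HEYL, a Notch effector, fell from 17.3 ± 2.69 to 8.61 ± 0.43 CPM (log2 fold change -1.002). INHBA, the activin A subunit, fell from 3.14 ± 0.424 to 0.731 ± 0.371 CPM (log2 fold change -2.12). WNT4, the ovarian WNT ligand, had 2.13 ± 0.392 CPM in CTRL and 1.4 ± 0.206 CPM in IND (adjusted p = 0.142). TSPAN8, a tetraspanin, had 16, 10 and 3 counts in CTRL and 6, 4 and 25 in IND and was below the filter. With 1 library left out, the adjusted p passed the threshold of 0.05 for LGR5 without CTRL 1, CTRL 2, CTRL 3, IND 1 or IND 2 (up to 0.148), BMP2 without CTRL 1, CTRL 3 or IND 2 (up to 0.0848) and SOX4 without CTRL 1, CTRL 3, IND 1 or IND 2 (up to 0.165). Several of these genes are named by the study from these libraries, so their direction is not independent evidence.

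Of later granulosa and steroid genes, 2 of 9 tested members rose, 1 fell and 6 did not pass the test (median log2 fold change 0.04). 0 rose without IND 2, 1 without CTRL 1 or CTRL 3 and 2 fell without IND 3. STAR, the carrier of cholesterol into mitochondria, had 13, 9.35 and 11.1 CPM in CTRL and 2.7, 3.57 and 3.32 CPM in IND (log2 fold change -1.80, SE 0.179, adjusted p = 0.000102). FSHR, the follicle-stimulating hormone receptor, rose from 2.93 ± 0.688 to 5.97 ± 0.966 CPM (log2 fold change 1.03). HSD3B2, a steroid dehydrogenase, had 4, 2 and 1 counts in CTRL and 10, 17 and 20 in IND (adjusted p = 0.0151). The call was lost on leaving out 1 library (adjusted p in brackets) for FSHR without CTRL 1 or IND 2 (up to 0.0614) and HSD3B2 without CTRL 2, CTRL 3 or IND 2 (up to 0.0883). CYP19A1, the aromatase, was below the filter, with 0, 10 and 3 counts in CTRL and 2, 0 and 0 in IND. In the testis list, 3 of 10 tested members rose, 2 fell and 5 did not pass the test (median log2 fold change 0.15). 1 fell without CTRL 1, CTRL 3, IND 1 or IND 2. CLDN11, a Sertoli tight junction protein, rose from 2.39 ± 0.373 to 12.1 ± 1.79 CPM (log2 fold change 2.34). CBLN1, a secreted cerebellin, rose from 1.3 ± 0.106 to 10.5 ± 3 CPM (log2 fold change 3.01). GATM, an enzyme of creatine synthesis, rose from 14.4 ± 3.87 to 54 ± 9.86 CPM (log2 fold change 1.91). SOX8, a SoxE factor, fell from 34.2 ± 1.47 to 17.9 ± 1.06 CPM (log2 fold change -0.94). NR0B1, the orphan receptor DAX1, fell from 2.23 ± 0.748 to 0.842 ± 0.216 CPM (log2 fold change -1.39). Single libraries decided the call (adjusted p without them in brackets) of NR0B1 without CTRL 1, CTRL 3, IND 1 or IND 2 (up to 0.0883). SOX9, the Sertoli-determining factor, had 14.6 ± 1.58 CPM in CTRL and 11 ± 2.81 CPM in IND (adjusted p = 0.154). AMH, the anti-Müllerian hormone, had 14.8 ± 2.16 CPM in CTRL and 18.4 ± 0.995 CPM in IND (adjusted p = 0.123). DHH, the Sertoli hedgehog ligand, had 2, 7 and 9 counts in CTRL and 16, 18 and 6 in IND and was below the filter. Of genes for intermediate mesoderm and nephron progenitors, 0 of 12 tested members rose, 1 fell and 11 did not pass the test (median log2 fold change 0.35). Calls made up 8.33% of this list, against 14.2% of all tested genes. 1 rose without CTRL 2, 2 without IND 3, 0 fell without CTRL 1, CTRL 3, IND 1 or IND 2 and 2 without IND 3. LHX1, a LIM factor of intermediate mesoderm and the one call, fell from 9.27 ± 1.98 to 5.22 ± 1.36 CPM (log2 fold change -0.82). Leaving out 1 library took the adjusted p past 0.05 for LHX1 without CTRL 1, CTRL 3, IND 1 or IND 2 (up to 0.139).

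Markers of cell types outside the gonad moved between the groups. Of genes of neurons, 1 of 32 tested members rose, 19 fell and 12 did not pass the test (median log2 fold change -1.44). Their summed level was 423, 333 and 379.5 CPM in CTRL and 162, 178 and 177 CPM in IND, with no overlap. NEFM, a neurofilament chain, had 35.9, 31.7 and 31.2 CPM in CTRL and 8.82, 8.6 and 9.8 CPM in IND (log2 fold change -1.86, SE 0.106, adjusted p = 2.09e-06). GAP43, a growth cone protein, fell from 29.6 ± 5.46 to 5.48 ± 0.374 CPM (log2 fold change -2.43). L1CAM, a neural adhesion molecule, fell from 38.6 ± 4.18 to 9.17 ± 2.03 CPM (log2 fold change -2.07). CNTN2, an axonal adhesion molecule, fell from 11.9 ± 3.4 to 2.05 ± 0.532 CPM (log2 fold change -2.54). ISL1, a LIM factor of motor neurons, cardiac progenitors and early mesoderm and the only member that rose, rose from 2.21 ± 1.2 to 15 ± 3.46 CPM (log2 fold change 2.75). Of neural crest and glial genes, 0 of 13 tested members rose, 7 fell and 6 did not pass the test (median log2 fold change -0.81). PAX3, a paired box factor of dorsal neural tube and crest, fell from 31.2 ± 6.86 to 13.4 ± 1.97 CPM (log2 fold change -1.22). SOX10, the neural crest and glial SoxE factor, fell from 73.8 ± 18 to 30.3 ± 0.592 CPM (log2 fold change -1.28). TFAP2B, an AP-2 factor, fell from 42.7 ± 11.9 to 18.2 ± 2 CPM (log2 fold change -1.23). Of heart and skeletal muscle genes, 0 of 10 tested members rose, 5 fell and 5 did not pass the test (median log2 fold change -0.65). 3 fell without CTRL 3 or IND 2. TNNT2, cardiac troponin T, fell from 60.9 ± 5.09 to 33.3 ± 0.481 CPM (log2 fold change -0.87). MYL7, the atrial myosin light chain, fell from 189 ± 35.7 to 70.6 ± 5.2 CPM (log2 fold change -1.42). RYR2, the cardiac ryanodine receptor, fell from 20.3 ± 1.3 to 6.35 ± 3.27 CPM (log2 fold change -1.67). With 1 library left out, the adjusted p passed the threshold of 0.05 for RYR2 without CTRL 1, CTRL 3 or IND 2 (up to 0.135).

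Endothelial genes went the other way. Of them, 10 of 15 tested members rose, 0 fell and 5 did not pass the test (median log2 fold change 0.99). 6 rose without CTRL 1. Their summed level was 227, 292 and 233 CPM in CTRL and 434, 399 and 392 CPM in IND. CDH5, the endothelial cadherin, had 15.6, 22.4 and 15.1 CPM in CTRL and 39.7, 32.7 and 33.3 CPM in IND (log2 fold change 0.99, SE 0.153, adjusted p = 0.00229). TEK, an angiopoietin receptor, rose from 11.1 ± 1.96 to 20.2 ± 0.731 CPM (log2 fold change 0.86). TIE1, its partner receptor, rose from 14.5 ± 3.1 to 28.6 ± 2.23 CPM (log2 fold change 0.98). ESAM, a junctional adhesion molecule, rose from 5.12 ± 1.39 to 12.8 ± 0.869 CPM (log2 fold change 1.32). FLI1, an ETS factor of blood and endothelium, rose from 5.07 ± 1.85 to 12.8 ± 1.94 CPM (log2 fold change 1.33). Of 11 blood genes 4 could be tested and 3 rose. RUNX1, the factor that specifies haematopoietic cells, rose from 0.725 ± 0.17 to 2.36 ± 0.602 CPM (log2 fold change 1.70). TAL1, a haemato-endothelial bHLH factor, rose from 2.09 ± 0.515 to 5.16 ± 1.11 CPM (log2 fold change 1.30). CD34, a sialomucin of progenitors and vessels, rose from 9.63 ± 1.71 to 19.2 ± 2.13 CPM (log2 fold change 0.996). Of smooth muscle genes, 2 of 8 tested members rose, 2 fell and 4 did not pass the test (median log2 fold change 0.06). 0 rose without CTRL 1, CTRL 2 or IND 1 and 1 without CTRL 3, IND 2 or IND 3. DES, desmin, fell from 45.1 ± 8.77 to 12.1 ± 3.4 CPM (log2 fold change -1.89). CNN1, calponin, fell from 72.3 ± 12 to 37.3 ± 4.69 CPM (log2 fold change -0.95). ACTA2, smooth muscle actin, rose from 57.6 ± 7.73 to 73.8 ± 3.2 CPM (log2 fold change 0.36). SMTN, smoothelin, rose from 46.6 ± 2.4 to 57.4 ± 6.5 CPM (log2 fold change 0.30). The call was lost on leaving out 1 library (adjusted p in brackets) for ACTA2 without CTRL 1, CTRL 2, IND 1 or IND 2 (up to 0.152) and SMTN without CTRL 1, CTRL 2, CTRL 3, IND 1 or IND 3 (up to 0.222). Of pluripotency genes, 0 of 10 tested members rose, 3 fell and 7 did not pass the test (median log2 fold change 0.16). 3 rose without IND 3. The summed level of all members overlapped, at 850, 877 and 846 CPM in CTRL and 1108, 1047 and 819 CPM in IND. Among members not called, POU5F1 and SOX2 had log2 fold changes of 0.94 and 0.55, and LIN28B had -0.09. UTF1, a chromatin factor of stem cells, fell from 1.4 ± 0.636 to 0.316 ± 0.12 CPM (log2 fold change -2.15). DNMT3B, a de novo DNA methyltransferase, fell from 52.4 ± 3.08 to 39.9 ± 2.98 CPM (log2 fold change -0.40). L1TD1, an RNA-binding protein of stem cells, fell from 12.4 ± 1.54 to 7.37 ± 1.64 CPM (log2 fold change -0.76). Single libraries decided the call (adjusted p without them in brackets) of L1TD1 without CTRL 3 or IND 2 (up to 0.0773). The part that shares of other cell types have in the gonadal calls was not tested. On the scale of the whole series, the neuronal sum went from 160.2 ± 20.2 CPM at day 4 to 369 ± 43.1 in CTRL and 167 ± 9.45 in IND at day 8. The endothelial sum went from 149 ± 27.1 CPM at day 4 to 244 ± 35.4 in CTRL and 394 ± 19.1 in IND.

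Most tested genes of the interferon response rose. Interferons signal through JAK kinases to promoters with an interferon-stimulated response element, whose core is a pair of GAAA repeats. Of this list, 25 of 43 tested members rose, 1 fell and 17 did not pass the test (median log2 fold change 0.80). 12 rose without CTRL 1, 13 without CTRL 3, 15 without IND 2, 0 fell without CTRL 1, CTRL 2, CTRL 3, IND 1 or IND 2 and 3 without IND 3. The summed level of all members nevertheless overlapped between groups, at 893, 1034 and 951 CPM in CTRL and 987, 1102 and 1310.3 CPM in IND. The member that fell was IFITM2 (log2 fold change -0.53, adjusted p = 0.0468). Among members not called, IFITM3 and IFITM1 of the same family had log2 fold changes of -0.43 and -0.50. TLR3, the sensor of double-stranded RNA, had 0.0911, 0.0738 and 0.138 CPM in CTRL and 2.25, 2.99 and 6.21 CPM in IND (log2 fold change 5.22, SE 0.506, adjusted p = 0.000107). PARP14, a mono-ADP-ribosyltransferase, had 4.49, 4.97 and 3.99 CPM in CTRL and 14.9, 12 and 11.9 CPM in IND (log2 fold change 1.53, SE 0.155, adjusted p = 0.000107). DTX3L, its ubiquitin ligase partner, rose from 3.43 ± 0.0983 to 9.36 ± 0.247 CPM (log2 fold change 1.45). GBP2, a guanylate-binding protein, rose from 0.323 ± 0.163 to 2.32 ± 0.6 CPM (log2 fold change 2.82). IFIT3, an antiviral tetratricopeptide protein, rose from 0.752 ± 0.0358 to 2.99 ± 0.886 CPM (log2 fold change 1.99). IFIT2, a member of the same family, had 2, 5 and 2 counts in CTRL and 26, 31 and 61 in IND (adjusted p = 0.00113). Of genes for antigen presentation on MHC class I, 10 of 17 tested members rose, 0 fell and 7 did not pass the test (median log2 fold change 0.93). HLA-C, a class I heavy chain, had 66.8, 89.7 and 77.6 CPM in CTRL and 151, 159.7 and 149 CPM in IND (log2 fold change 0.97, SE 0.0981, adjusted p = 0.000107). TAP1, the peptide transporter, rose from 0.685 ± 0.154 to 4.2 ± 1.38 CPM (log2 fold change 2.61). PSMB8, an immunoproteasome subunit, rose from 0.301 ± 0.137 to 2.95 ± 1.45 CPM (log2 fold change 3.30). TAPBP, the loading factor tapasin, rose from 16.7 ± 0.898 to 36.1 ± 8.92 CPM (log2 fold change 1.11). ERAP1, a trimming peptidase, rose from 40.4 ± 0.281 to 55.6 ± 3.61 CPM (log2 fold change 0.46). HLA genes are close paralogs, and reads shared among them leave their single values uncertain.

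Of the called members of both lists with a RefSeq promoter, 11 of 26 (42.3%) held GAAANNGAA on either strand in the 250 bases before the start, against 16 of 28 (57.1%) of their other members, 6.07% of all genes called higher and 5.50% of all tested genes. Its share was thus not higher in the members that rose than in the others. Stretches of 5 promoters are shown, on the gene's strand and with the motif in capitals, because they carry the element for which this group is named. They are chr10:89392373-89392545 for IFIT1, chr10:89327747-89327893 for IFIT3, chr1:1013247-1013422 for ISG15, chr1:27672219-27672442 for IFI6, chr12:112938224-112938351 for OAS3 (RefSeq, GRCh38.p14).
IFIT1 promoter: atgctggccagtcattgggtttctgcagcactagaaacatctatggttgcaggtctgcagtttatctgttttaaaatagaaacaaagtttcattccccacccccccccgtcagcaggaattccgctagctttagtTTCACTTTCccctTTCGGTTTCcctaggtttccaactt
IFIT3 promoter: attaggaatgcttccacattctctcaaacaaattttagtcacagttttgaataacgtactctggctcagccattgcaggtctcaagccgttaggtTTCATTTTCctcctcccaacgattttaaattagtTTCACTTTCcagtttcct
ISG15 promoter: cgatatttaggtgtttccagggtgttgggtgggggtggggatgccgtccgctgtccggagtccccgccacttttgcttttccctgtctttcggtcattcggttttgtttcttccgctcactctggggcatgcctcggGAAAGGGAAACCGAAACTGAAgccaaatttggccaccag
IFI6 promoter: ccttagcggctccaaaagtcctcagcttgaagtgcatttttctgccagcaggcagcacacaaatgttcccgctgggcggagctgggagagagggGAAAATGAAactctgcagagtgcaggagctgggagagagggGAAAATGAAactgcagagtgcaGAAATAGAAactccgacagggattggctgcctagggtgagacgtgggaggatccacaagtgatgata
OAS3 promoter: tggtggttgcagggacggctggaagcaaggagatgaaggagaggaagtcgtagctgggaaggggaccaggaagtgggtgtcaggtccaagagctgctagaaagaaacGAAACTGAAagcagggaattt

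IFIT1, the founding member of its family, rose from 8.71 ± 0.399 to 21.3 ± 8.18 CPM (log2 fold change 1.29). ISG15, a ubiquitin-like modifier, rose from 8.14 ± 2.44 to 18.6 ± 0.849 CPM (log2 fold change 1.19). IFI6, a mitochondrial interferon-induced protein, rose from 9.33 ± 0.263 to 16.2 ± 3.31 CPM (log2 fold change 0.80). OAS3, an oligoadenylate synthetase, rose from 0.256 ± 0.164 to 1.1 ± 0.309 CPM (log2 fold change 2.11). A match is a description of the letters in the window, and binding was not measured. Leaving out 1 library took the adjusted p past 0.05 for IFIT1 without CTRL 1 or CTRL 3 (up to 0.0686) and OAS3 without CTRL 1, CTRL 3 or IND 2 (up to 0.085).

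Signalling pathways held calls in both directions. In the WNT pathway, 11 of 51 tested members rose, 9 fell and 31 did not pass the test (median log2 fold change 0.08). 3 rose without CTRL 1 or CTRL 3, 5 without IND 2 and 6 without IND 1. SFRP4, a secreted WNT antagonist, had 4, 1 and 1 counts in CTRL and 68, 55 and 83 in IND (adjusted p = 7.93e-05). DKK1, a WNT antagonist at LRP receptors, rose from 6.31 ± 1.9 to 19.99 ± 5.34 CPM (log2 fold change 1.66). SFRP1, a secreted antagonist as well, fell from 619 ± 65.2 to 304 ± 39.5 CPM (log2 fold change -1.02). RSPO4, an R-spondin, fell from 20.4 ± 0.661 to 7.74 ± 1.87 CPM (log2 fold change -1.39). LEF1, a nuclear effector of the pathway, fell from 202 ± 3.76 to 107 ± 24.6 CPM (log2 fold change -0.92). Ligand and antagonist genes thus appeared on both sides, while the receptor genes called, FZD7, FZD9 and LGR5, all rose. In the TGF-beta, activin and BMP pathway, 10 of 51 tested members rose, 9 fell and 32 did not pass the test (median log2 fold change -0.10). 4 rose without CTRL 1, 6 without CTRL 3 or IND 2 and 15 fell without IND 3. BMP4, a ligand of ventral mesoderm, had 239.8, 256 and 267 CPM in CTRL and 135, 132 and 136 CPM in IND (log2 fold change -0.92, SE 0.0669, adjusted p = 1.02e-05). TGFB2, a TGF-beta ligand, fell from 140.4 ± 5.67 to 75.8 ± 5.78 CPM (log2 fold change -0.89). INHBE, an activin subunit, fell from 12.3 ± 2.36 to 4.21 ± 0.517 CPM (log2 fold change -1.55). GDF7, a BMP-family ligand of the roof plate, fell from 124 ± 28 to 29.2 ± 4.39 CPM (log2 fold change -2.08). BMPER, an extracellular regulator of BMPs, rose from 7.41 ± 0.903 to 14.7 ± 0.501 CPM (log2 fold change 0.99). TGFBR3, the co-receptor betaglycan, rose from 61.8 ± 10.5 to 127 ± 14.6 CPM (log2 fold change 1.04). In the FGF and PDGF pathway, 3 of 36 tested members rose, 7 fell and 26 did not pass the test (median log2 fold change 0.10). 0 rose without CTRL 3 or IND 2, 1 without CTRL 1 and 6 without IND 3. PDGFRA, a mesenchymal receptor, fell from 516 ± 11.8 to 382 ± 20.2 CPM (log2 fold change -0.43). ETV1, an ETS target of FGF signals, fell from 22.7 ± 4.07 to 10.4 ± 1.36 CPM (log2 fold change -1.12). FGF18, an FGF ligand, fell from 8.83 ± 1.24 to 2.04 ± 1.18 CPM (log2 fold change -2.10).

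In the Notch pathway, 2 of 20 tested members rose, 4 fell and 14 did not pass the test (median log2 fold change 0.09). 1 rose without CTRL 1, CTRL 3, IND 1 or IND 2 and 6 without IND 3. DLL3, an inhibitory ligand, fell from 22.1 ± 4.73 to 8.99 ± 1.88 CPM (log2 fold change -1.30). NOTCH2, a receptor of granulosa cells, fell from 430.2 ± 27.8 to 291 ± 19.3 CPM (log2 fold change -0.57). JAG2, a ligand, rose from 14.3 ± 1.32 to 23.6 ± 4.5 CPM (log2 fold change 0.72). NOTCH3, a receptor of mural and mesenchymal cells, had 220.3 ± 9.51 CPM in CTRL and 305 ± 79.7 CPM in IND (adjusted p = 0.16), with 3.82e-05 without IND replicate 3. In the Hedgehog pathway, 0 of 12 tested members rose, 1 fell and 11 did not pass the test (median log2 fold change 0.14). Calls made up 8.33% of this list, against 14.2% of all tested genes. 1 rose without IND 3, 3 without CTRL 2 and 2 fell without CTRL 2 or IND 3. BOC, a Hedgehog co-receptor, fell from 91.4 ± 7.19 to 51.9 ± 9.63 CPM (log2 fold change -0.82). In the retinoic acid pathway, 5 of 18 tested members rose, 4 fell and 9 did not pass the test (median log2 fold change 0.04). 2 rose without CTRL 3, 3 without CTRL 1, IND 1 or IND 2 and 2 fell without CTRL 1, CTRL 3, IND 1 or IND 2. RXRG, a retinoid X receptor, fell from 7.01 ± 0.699 to 1.55 ± 0.267 CPM (log2 fold change -2.17). STRA6, the receptor for retinol-binding protein, fell from 110.1 ± 3.56 to 74.7 ± 8.91 CPM (log2 fold change -0.56). RARB, a retinoic acid receptor and target, rose from 55.2 ± 2.59 to 76.8 ± 2.4 CPM (log2 fold change 0.48). RDH10, the dehydrogenase that makes retinal, fell from 112 ± 24.6 to 52.8 ± 10.6 CPM (log2 fold change -1.09). CYP26B1, the enzyme that degrades retinoic acid in the fetal gonad, had 5.67 ± 0.452 CPM in CTRL and 7.86 ± 1.1 CPM in IND (adjusted p = 0.0728). In the IGF pathway, 4 of 18 tested members rose, 1 fell and 13 did not pass the test (median log2 fold change 0.11). 2 rose without CTRL 1, CTRL 3, IND 1 or IND 2. PAPPA, a protease that frees IGF from its carriers, fell from 52.2 ± 5.91 to 29 ± 2.28 CPM (log2 fold change -0.85). With 1 library left out, the adjusted p passed the threshold of 0.05 for RDH10 without CTRL 1, CTRL 3, IND 1 or IND 2 (up to 0.0889).

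Peptide signals rose more often than they fell. Of them, 11 of 25 tested members rose, 1 fell and 13 did not pass the test (median log2 fold change 1.07). 0 fell without CTRL 1 or IND 1, 2 without IND 3 and 3 without CTRL 2. SST, the precursor of somatostatin, had 7.79, 8.24 and 7.79 CPM in CTRL and 42.4, 52.8 and 56 CPM in IND (log2 fold change 2.67, SE 0.117, adjusted p = 3.13e-07). TACR3, the neurokinin B receptor, had 0.547, 0.271 and 0.33 CPM in CTRL and 3.21, 4.2 and 2.51 CPM in IND (log2 fold change 3.09, SE 0.336, adjusted p = 0.00016). TAC3, the precursor of neurokinin B, rose from 3.1 ± 1.04 to 7.75 ± 0.881 CPM (log2 fold change 1.32). PENK, the precursor of enkephalins, rose from 0.929 ± 0.325 to 4.23 ± 0.661 CPM (log2 fold change 2.19). CXCR4, the receptor for CXCL12, rose from 10.7 ± 1.62 to 24 ± 3.99 CPM (log2 fold change 1.16). NPR3, the natriuretic peptide clearance receptor, rose from 53.8 ± 5.1 to 114 ± 3.37 CPM (log2 fold change 1.09). Of steroid and orphan nuclear receptors, 9 of 31 tested members rose, 0 fell and 22 did not pass the test (median log2 fold change 0.43). 3 rose without CTRL 1 or IND 2, 4 without CTRL 3, 5 without IND 1 and 1 fell without CTRL 2 or IND 1. NR2F1, an orphan receptor of mesenchyme and neural tissue, rose from 133 ± 7.95 to 195 ± 12.6 CPM (log2 fold change 0.55). NR6A1, the germ cell nuclear factor, rose from 127 ± 8.18 to 179.7 ± 15.1 CPM (log2 fold change 0.50). VDR, the vitamin D receptor, rose from 0.213 ± 0.095 to 0.73 ± 0.126 CPM (log2 fold change 1.75). The call was lost on leaving out 1 library (adjusted p in brackets) for VDR without CTRL 1, CTRL 3, IND 1 or IND 2 (up to 0.108).

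Lists of the matrix and the cell surface follow, to be read beside the 14.2% called among all tested genes. Laminins, with 9.09% called, and cadherins and protocadherins, with 17.1%, lay below or near that share. Of collagen chains, 6 of 41 tested members rose, 13 fell and 22 did not pass the test (median log2 fold change -0.0019). 2 rose without CTRL 1 or IND 2, 3 without CTRL 3 or IND 1, 13 without IND 3 and 8 fell without CTRL 3. COL6A6, a chain of collagen VI, fell from 23.4 ± 4.82 to 7.96 ± 0.436 CPM (log2 fold change -1.55). COL16A1, a fibril-associated collagen, fell from 21.7 ± 2.93 to 5.88 ± 1.46 CPM (log2 fold change -1.89). COL14A1, a fibril-associated collagen, rose from 19.2 ± 2.25 to 40.6 ± 6.5 CPM (log2 fold change 1.08). COL24A1, a fibrillar collagen, rose from 0.554 ± 0.288 to 2.65 ± 0.968 CPM (log2 fold change 2.26). Of small leucine-rich proteoglycans, 2 of 8 tested members rose, 2 fell and 4 did not pass the test (median log2 fold change 0.06). 1 rose without CTRL 1, CTRL 3, IND 2 or IND 3. LUM, the keratan sulphate proteoglycan lumican, had 365, 320.2 and 439 CPM in CTRL and 117, 126 and 157 CPM in IND (log2 fold change -1.49, SE 0.143, adjusted p = 0.000342). DCN, decorin, a binder of collagen and TGF-beta, fell from 292 ± 68.3 to 85.5 ± 23.2 CPM (log2 fold change -1.77). PRELP, a proline- and arginine-rich member, rose from 13.7 ± 1.19 to 46.7 ± 9.57 CPM (log2 fold change 1.77). Of matrix proteases and inhibitors, 7 of 33 tested members rose, 8 fell and 18 did not pass the test (median log2 fold change -0.0017). ADAMTS16, a protease linked to gonad and kidney, rose from 3.49 ± 1.03 to 24.4 ± 2.1 CPM (log2 fold change 2.80). ADAMTS5, a versican and aggrecan protease, rose from 15.2 ± 3.79 to 66.8 ± 6.13 CPM (log2 fold change 2.13). ADAMTS20, a related protease, rose from 2.17 ± 0.37 to 8.47 ± 1.64 CPM (log2 fold change 1.96). MMP16, a membrane-type metalloprotease, fell from 50.4 ± 2.76 to 28.8 ± 2.4 CPM (log2 fold change -0.81). Of laminins, 1 of 11 tested members rose, 0 fell and 10 did not pass the test (median log2 fold change 0.16). 3 rose without IND 3, 4 without CTRL 2 and 2 fell without IND 3. Of complement and coagulation genes, 9 of 42 tested members rose, 8 fell and 25 did not pass the test (median log2 fold change 0.34). 4 rose without CTRL 1, 5 without CTRL 3 and 5 fell without CTRL 3 or IND 2. BDKRB2, a bradykinin receptor, fell from 28.5 ± 3.49 to 6.15 ± 1.51 CPM (log2 fold change -2.20). TFPI2, a protease inhibitor, fell from 11.1 ± 3.45 to 3.43 ± 0.385 CPM (log2 fold change -1.69). C1R, a complement protease, rose from 7.5 ± 0.544 to 13.5 ± 2.86 CPM (log2 fold change 0.85). Of genes of caveolae, 2 of 9 tested members rose, 3 fell and 4 did not pass the test (median log2 fold change -0.03). CAV1, caveolin, rose from 7.04 ± 0.424 to 13.3 ± 1.43 CPM (log2 fold change 0.92). CAVIN1, its coat protein, fell from 143 ± 21.6 to 70.8 ± 4.35 CPM (log2 fold change -1.01).

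Of integrins, 8 of 20 tested members rose, 3 fell and 9 did not pass the test (median log2 fold change 0.29). 4 rose without CTRL 1 or CTRL 3 and 5 without IND 2. ITGB3, the beta chain of the vitronectin receptor, had 0.455, 0.394 and 0.44 CPM in CTRL and 2.57, 2.05 and 1.15 CPM in IND (log2 fold change 2.14, SE 0.36, adjusted p = 0.00249). ITGB2, the leukocyte beta chain, rose from 1.24 ± 0.273 to 4.96 ± 0.738 CPM (log2 fold change 2.000). ITGA1, a collagen receptor chain, rose from 6.75 ± 1.35 to 17.1 ± 5.24 CPM (log2 fold change 1.34). ITGA4, an alpha chain for fibronectin and VCAM1, fell from 3.36 ± 1.11 to 1.16 ± 0.337 CPM (log2 fold change -1.54). ITGA8, an alpha chain of nephrogenic mesenchyme, fell from 39.9 ± 6.78 to 21.6 ± 3.61 CPM (log2 fold change -0.88). Of cadherins and protocadherins, 8 of 76 tested members rose, 5 fell and 63 did not pass the test (median log2 fold change 0.07). 3 rose without CTRL 1, 4 without CTRL 3, 5 without IND 2, 14 without IND 3, 2 fell without CTRL 1, CTRL 3 or IND 1 and 3 without IND 2. CDH2, N-cadherin, rose from 199 ± 22.8 to 360.2 ± 53 CPM (log2 fold change 0.85). CDH13, a GPI-anchored cadherin, rose from 4.66 ± 0.976 to 9.91 ± 0.499 CPM (log2 fold change 1.09). CDH18, a neural cadherin, fell from 4.81 ± 1.58 to 0.916 ± 0.322 CPM (log2 fold change -2.37). Of claudins, 5 of 15 tested members rose, 1 fell and 9 did not pass the test (median log2 fold change 1.01). 3 rose without CTRL 3, IND 1 or IND 2 and 0 fell without CTRL 1, CTRL 2, CTRL 3, IND 1 or IND 2. CLDN19, a renal claudin, rose from 7.13 ± 0.278 to 15.9 ± 3.74 CPM (log2 fold change 1.15). CLDN23, a further claudin, rose from 3.29 ± 0.411 to 7.75 ± 1.67 CPM (log2 fold change 1.24). Of keratins, 9 of 54 could be tested, 2 rose and none fell, and 7 did not pass the test. 1 rose without CTRL 1, IND 1 or IND 2 and 1 fell without IND 2. The second beside KRT7 was KRT4. KRT4, a keratin of stratified epithelium, rose from 0.2 ± 0.21 to 1.74 ± 0.903 CPM (log2 fold change 3.06). Single libraries decided the call (adjusted p without them in brackets) of KRT4 without CTRL 1, IND 1 or IND 2 (up to 0.156). Of axon guidance ligands and receptors, 15 of 67 tested members rose, 15 fell and 37 did not pass the test (median log2 fold change 0.16). 7 rose without CTRL 1, CTRL 3 or IND 2 and 26 without IND 3. EPHA3, an ephrin receptor, fell from 31.3 ± 7.22 to 5.13 ± 1.06 CPM (log2 fold change -2.61). SLIT2, a repellent ligand, fell from 88.9 ± 16.9 to 38.2 ± 3.02 CPM (log2 fold change -1.22). SEMA3A, a secreted semaphorin, rose from 62 ± 4.55 to 91.4 ± 5.02 CPM (log2 fold change 0.56). UNC5A, a netrin receptor, rose from 0.919 ± 0.0526 to 2.99 ± 0.648 CPM (log2 fold change 1.70).

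Genes of amino acid supply and the integrated stress response fell more often than they rose. ATF4, the factor translated when ribosome initiation is reduced, drives many of them. Of this list, 0 of 31 tested members rose, 22 fell and 9 did not pass the test (median log2 fold change -0.51). 1 rose without CTRL 2. Their summed level was 4228, 4769.8 and 5084 CPM in CTRL and 3149.9, 3321 and 3109 CPM in IND, without overlap. SLC7A5, the large neutral amino acid transporter, had 502, 648 and 690.1 CPM in CTRL and 276, 283 and 239.6 CPM in IND (log2 fold change -1.20, SE 0.118, adjusted p = 0.00016). PSAT1, an enzyme of serine synthesis, fell from 254 ± 23.4 to 138 ± 4.18 CPM (log2 fold change -0.89). SHMT2, the mitochondrial serine hydroxymethyltransferase, fell from 239 ± 27.9 to 131 ± 5.59 CPM (log2 fold change -0.87). MTHFD2, a mitochondrial folate enzyme, fell from 174 ± 22 to 92.7 ± 2.85 CPM (log2 fold change -0.91). GARS, the glycyl-tRNA synthetase, fell from 210.2 ± 11.1 to 129.8 ± 4.28 CPM (log2 fold change -0.70). Of cholesterol and fatty acid synthesis genes, 0 of 29 tested members rose, 8 fell and 21 did not pass the test (median log2 fold change -0.15). 4 fell without CTRL 1 and 5 without CTRL 3 or IND 2. FADS1, a fatty acid desaturase, fell from 316 ± 8.02 to 230.1 ± 7.75 CPM (log2 fold change -0.46). HMGCS1, a synthase of the mevalonate route, fell from 159 ± 6.13 to 128 ± 8.55 CPM (log2 fold change -0.32). Of glycolysis and hypoxia genes, 5 of 35 tested members rose, 1 fell and 29 did not pass the test (median log2 fold change 0.22). Calls made up 17.1% of this list, near the 14.2% of all tested genes. 3 rose without CTRL 1, CTRL 3, IND 1 or IND 2, 10 without CTRL 2 and 11 without IND 3. EGLN3, a prolyl hydroxylase induced by hypoxia, rose from 7.28 ± 1 to 17.3 ± 1.08 CPM (log2 fold change 1.25). CA12, a carbonic anhydrase, rose from 3.75 ± 0.761 to 12.4 ± 3.08 CPM (log2 fold change 1.73). PDK1, a pyruvate dehydrogenase kinase, fell from 106 ± 6.4 to 80.6 ± 5.42 CPM (log2 fold change -0.39). Of cell cycle and replication genes, 0 of 49 tested members rose, 4 fell and 45 did not pass the test (median log2 fold change -0.11). Calls made up 8.16% of this list, below the 14.2% of all tested genes. 1 rose without IND 3 and 15 fell without IND 3. CCND2, a cyclin D, fell from 291 ± 15.2 to 167 ± 6.04 CPM (log2 fold change -0.80). CDKN2B, an inhibitor of CDK4 and CDK6, fell from 18.5 ± 4.63 to 4.21 ± 0.409 CPM (log2 fold change -2.14).

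Transcripts from the mitochondrial genome were lower in every IND library. Of its protein coding genes, 0 of 13 tested members rose, 12 fell and 1 did not pass the test (median log2 fold change -0.66). The mitochondrial share of all counts was 3.28%, 3.20% and 3.28% in CTRL and 2.01%, 1.99% and 2.53% in IND, with no overlap. MT-ND1, a complex I subunit, had 1257, 1309 and 1348 CPM in CTRL and 696, 655 and 868 CPM in IND (log2 fold change -0.82, SE 0.1, adjusted p = 0.000364). MT-CO1, a complex IV subunit, had 11013, 10766 and 10822 CPM in CTRL and 6956, 6549 and 8382 CPM in IND (log2 fold change -0.57, SE 0.0968, adjusted p = 0.00251). MT-CO3, a complex IV subunit, fell from 3106 ± 69.4 to 1789 ± 526 CPM (log2 fold change -0.80). MT-ND4, a complex I subunit, fell from 3302 ± 43.8 to 2059 ± 135 CPM (log2 fold change -0.68). MT-CO2, a complex IV subunit, had 2084 ± 38.5 CPM in CTRL and 1511 ± 355 CPM in IND (adjusted p = 0.0622). MT-RNR2, the large ribosomal RNA of mitochondria, fell from 6292 ± 341 to 4195 ± 833 CPM (log2 fold change -0.58). Leaving out 1 library took the adjusted p past 0.05 for MT-CO3 without CTRL 1, CTRL 2, CTRL 3, IND 1 or IND 2 (up to 0.104) and MT-RNR2 without CTRL 1, CTRL 3 or IND 2 (up to 0.0599). The libraries were made from poly-A RNA, and whether the share follows RNA quality, cell state or both was not tested. Of cytosolic ribosomal protein genes, 0 of 79 tested members rose, 4 fell and 75 did not pass the test (median log2 fold change -0.10). Calls made up 5.06% of this list, below the 14.2% of all tested genes. 1 fell without CTRL 2, IND 1 or IND 2, 2 without CTRL 1 or CTRL 3 and 34 without IND 3. RPL26, a large subunit protein, fell from 27.3 ± 2.24 to 19.7 ± 0.517 CPM (log2 fold change -0.47).

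Of HOX genes, 0 of 23 tested members rose, 8 fell and 15 did not pass the test (median log2 fold change -0.90). 3 fell without CTRL 1, 4 without CTRL 3 or IND 2 and 17 without IND 3. HOXC8, a posterior trunk factor, had 5.12, 2.85 and 3.96 CPM in CTRL and 0.561, 0.997 and 1.11 CPM in IND (log2 fold change -2.15, SE 0.31, adjusted p = 0.000989). HOXC4, an anterior cluster C factor, fell from 29.7 ± 2.99 to 13.2 ± 3.57 CPM (log2 fold change -1.17). HOXB3, a hindbrain and trunk factor, fell from 165 ± 27.1 to 82.9 ± 11.9 CPM (log2 fold change -0.99). HOXA4, a cluster A factor, fell from 6.38 ± 0.439 to 3.2 ± 0.779 CPM (log2 fold change -0.99). With 1 library left out, the adjusted p passed the threshold of 0.05 for HOXA4 without CTRL 1 (up to 0.0501). Of T-box factors, 2 of 13 tested members rose, 3 fell and 8 did not pass the test (median log2 fold change -0.03). 1 rose without CTRL 1, CTRL 2, CTRL 3, IND 1 or IND 2 and 4 without IND 3. TBX4, a hindlimb and lung mesenchyme factor, rose from 0.516 ± 0.0939 to 4.14 ± 1.87 CPM (log2 fold change 3.01). TBX5, a forelimb and heart factor, fell from 45.8 ± 2.24 to 20.4 ± 5.04 CPM (log2 fold change -1.16). TBX3, a limb and gland factor, fell from 66.5 ± 5.79 to 47.5 ± 2.9 CPM (log2 fold change -0.49). Of Iroquois factors, 2 of 4 tested members rose, 0 fell and 2 did not pass the test (median log2 fold change 0.35). IRX5, a granulosa Iroquois factor, rose from 4.44 ± 0.664 to 9.85 ± 0.559 CPM (log2 fold change 1.15). Of voltage-gated and inward rectifier channels, 15 of 108 tested members rose, 18 fell and 75 did not pass the test (median log2 fold change 0.10). 8 rose without CTRL 1, CTRL 3 or IND 2, 9 without IND 1 and 23 without IND 3. KCNJ3, an atrial and neuronal potassium channel, fell from 55 ± 1.75 to 9.87 ± 1.64 CPM (log2 fold change -2.48). KCNH5, a potassium channel, rose from 0.249 ± 0.0452 to 3.33 ± 0.586 CPM (log2 fold change 3.73). CACNA1G, a T-type calcium channel, fell from 17.9 ± 2.51 to 7.25 ± 1.51 CPM (log2 fold change -1.30).

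Other forkhead genes were not shut off or raised as a family. Of them, 5 of 35 tested members rose, 4 fell and 26 did not pass the test (median log2 fold change 0.13). 2 rose without CTRL 3, 3 without IND 1 or IND 2, 12 without CTRL 2, 0 fell without CTRL 3 and 1 without IND 1 or IND 2. FOXP2, a factor of neural and lung development, rose from 12.3 ± 0.901 to 18.3 ± 1.07 CPM (log2 fold change 0.58). FOXP1, a broad forkhead repressor, rose from 37.3 ± 4.31 to 51 ± 6.53 CPM (log2 fold change 0.45). FOXL1, a forkhead factor of mesenchyme, had 3.8 ± 0.536 CPM in CTRL and 4.64 ± 1.29 CPM in IND (adjusted p = 0.442). The call was lost on leaving out 1 library (adjusted p in brackets) for FOXP1 without CTRL 3 or IND 1 (up to 0.127). The forkhead core TAAACA on either strand stood in the 250 bases before the start in 7.19% of genes called higher, 7.18% of genes called lower, 6.59% of tested genes and 11.1% of all promoters in the RefSeq table.  The stress response element TGATGNAA stood in 2 of 14 genes of the stress and amino acid list that fell (14.3%), in 2 of 9 other members (22.2%) and in 1.48% of tested genes.

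**Figure D3:**
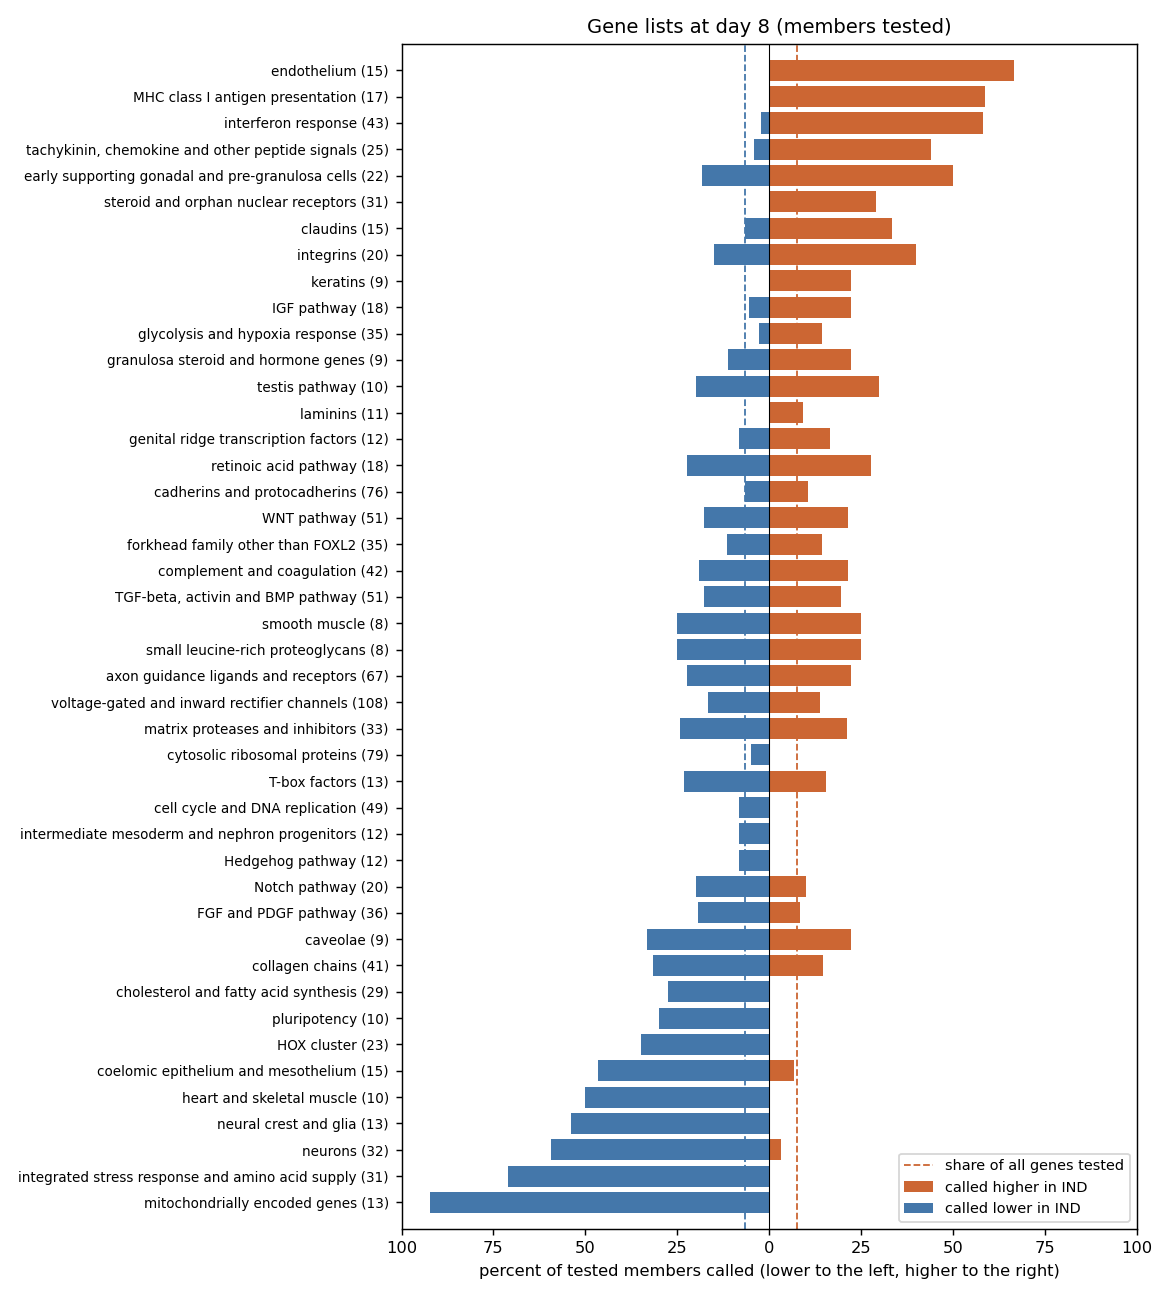
For each gene list with 8 or more tested members (number in brackets), the bars give the percent of members called higher in IND to the right in orange and lower to the left in blue. The dashed lines give the same shares over all genes tested, 7.49% higher and 6.67% lower. Endothelial, interferon and MHC class I genes reach furthest to the right and mitochondrial, stress response and neuronal genes furthest to the left.

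Beside day 8, fewer genes passed the test on the days around it. At day 6, 246 genes (1.29%) were higher and 454 (2.37%) lower, and at day 10, 170 (0.856%) were higher and 234 (1.18%) lower. Day 10 rests on IND replicate 2, since leaving it out raised the day 10 count from 404 to 3768. Of the genes higher at day 6, 185 were also higher at day 8, which is 75.2% of the day 6 genes and 12.7% of the day 8 genes. For lower genes the number was 332, or 73.1% and 25.6%. At day 10 the higher overlap was 152 (89.4% of day 10, 10.4% of day 8) and the lower overlap 212 (90.6% and 16.3%). A count of calls per day is no test of a difference between days. Tested directly, the effect of induction differed between days 6 and 8 for 69 genes (0.336%), 35 with a more positive and 34 with a more negative value at day 8, and 254 without day 8 IND replicate 3. Between days 8 and 10 it differed for 1 gene (0.00477%).

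For some genes the effect became more positive between the 2 days. FIBIN, a secreted fin bud initiation factor, had a log2 fold change of 0.13 at day 6 and 3.15 at day 8, a difference of 3.00 (SE 0.196, adjusted p = 8.24e-08). Its day 8 levels were 4.26, 5.44 and 4.96 CPM in CTRL and 44.4, 48.4 and 37.4 CPM in IND. SST, described above, had a log2 fold change of -0.36 at day 6 and 2.67 at day 8, a difference of 3.01 (SE 0.321, adjusted p = 0.000845). At day 10 the SST value was -0.60, a difference of -3.27 from day 8 (SE 0.289, adjusted p = 0.00226), and SST was the single call between those days. C7, the complement component named above, had a log2 fold change of 2.09 at day 6 and 5.13 at day 8, a difference of 3.00 (SE 0.471, adjusted p = 0.00349). TMOD1, the actin-capping gene, had a log2 fold change of 0.36 at day 6 and 3.43 at day 8, a difference of 3.06 (SE 0.389, adjusted p = 0.000845). CSMD1, a complement-regulatory membrane protein, differed in the same direction but from a low start, with -2.37 at day 6 and 0.47 at day 8. For others it became more negative. NELL1, the secreted protein, had a log2 fold change of -1.06 at day 6 and -4.34 at day 8, a difference of -3.29 (SE 0.523, adjusted p = 0.00385). ARHGAP22, the GTPase activator, had a log2 fold change of -0.47 at day 6 and -3.04 at day 8, a difference of -2.60 (SE 0.287, adjusted p = 0.000845). HBEGF, an EGF receptor ligand, had a log2 fold change of -0.25 at day 6 and -2.60 at day 8, a difference of -2.37 (SE 0.31, adjusted p = 0.000845). IL6R, the interleukin 6 receptor, had a log2 fold change of 0.75 at day 6 and -1.23 at day 8, a difference of -1.99 (SE 0.34, adjusted p = 0.00702). SCN3B, a sodium channel subunit, had a log2 fold change of 0.35 at day 6 and -1.64 at day 8, a difference of -2.01 (SE 0.365, adjusted p = 0.0128). From NELL1 to SCN3B, mean CPM on the scale of the whole series rose more in CTRL than in IND between the 2 days. In CTRL it went from 0.498 to 17.2 for NELL1, 8.2 to 66.1 for ARHGAP22 and 2.07 to 12.5 for HBEGF. In IND it went from 0.235 to 0.826, 5.85 to 7.94 and 1.71 to 2.03. IL6R went from 0.996 to 10.7 in CTRL and 1.66 to 4.55 in IND, and SCN3B from 1.82 to 11.2 and 2.28 to 3.54.

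**Figure D4:**
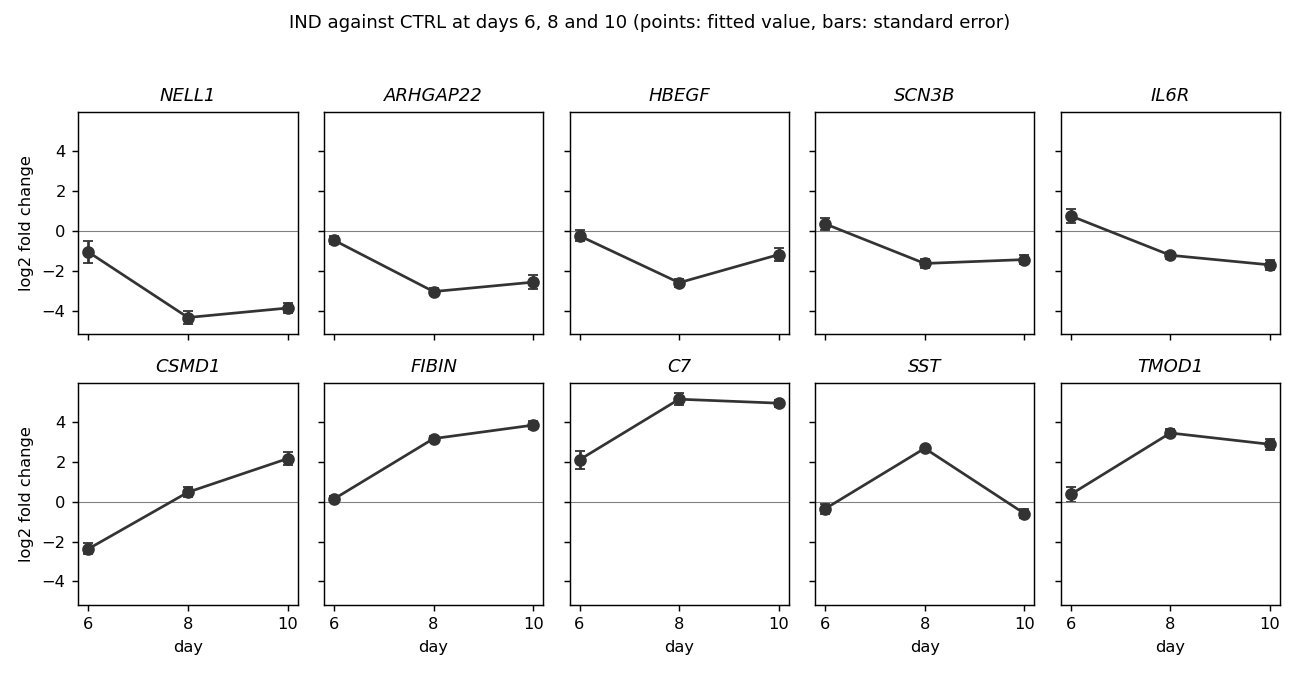
Log2 fold change of IND against CTRL at days 6, 8 and 10 (x axis) for the 5 protein coding genes with the largest difference between days 6 and 8 in each direction among those with an average log2 CPM of 1 or more (points are fitted values, bars the standard error). Of the 3 days, SST is high at day 8, while FIBIN, C7, TMOD1 and CSMD1 have values above 2 at day 10.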

How the data were processed

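The libraries were poly-A selected, non-directional and sequenced as paired ends. Per the labels and the study's methods, the authors trimmed reads with fastp 0.23.2, aligned them to GRCh38 with HISAT2 2.0.5 and counted them per gene with featureCounts 1.5.0-p3, and they deposited raw counts and FPKM values per library. The counts were used as deposited, and the FPKM values, which the authors scaled by gene length and depth, served only in 1 alternative test and to give levels per length.

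IND and CTRL at day 8 were compared in edgeR 4.0.16 (R 4.3.3) with filterByExpr, TMM factors and the robust quasi-likelihood test, and p-values were adjusted by the Benjamini-Hochberg method over all genes tested, with a threshold of 0.05. The same fit served days 6 and 10, and differences between days were tested as interaction contrasts. Each SE, or standard error, was worked back from the test. It is the absolute log2 fold change divided by the square root of the F statistic. The methods of the study name DESeq2, which was run here as an alternative (version 1.42.0). Further alternatives were RLE size factors, no filter, a mean of at least 50 counts, a minimum absolute log2 fold change of 1, a fit of all 33 libraries, limma-trend 3.58.1 on log2(FPKM + 1), the replicate number as a block, and each library left out in turn. Motifs were searched in RefSeq promoters of GRCh38.p14.

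Counts and comparisons were grouped by day and treatment as labelled. The comparison, its 47 gene lists and the genes named were chosen with earlier results of these data known. The genes named were those of the FOXL2 locus and its 1 Mb surroundings, genes the study names, the 10 largest rises and falls among protein coding genes whose mean log2 CPM reached 1 and whose groups did not overlap, the 10 largest gains and losses of mean CPM, the called members of each list with the smallest p, and, under the same limits of biotype and level, the 5 largest differences between days in each direction. Some genes that meet this rule are not reported here. FIBIN, which meets the last of these, is also shown by level. Correlations of same-numbered libraries' deviations from their group means at day 8 were -0.0836, 0.064 and 0.114, so the numbers were not taken to pair the samples. In simulated day 8 data on 18037 genes, edgeR recovered 88 of 100 genes changed 2-fold and 99 of 100 changed 4-fold, with 21 false calls among 208. The simulated spread was that of the CTRL libraries alone. Against counting noise, pairs of real libraries differed by a chi-squared per gene of 9.28 to 16.9 in CTRL and 10.5 to 43.1 in IND. The simulated rates therefore do not carry over to the real comparison. Intervals on counts cover counting error only.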

Additional observations from a re-analysis of the deposited data

Results flagged for a closer look

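The effect of induction differed between days 6 and 8 for 69 genes and between days 8 and 10 for 1 gene, each by an edgeR test of the difference itself at an adjusted p under 0.05. Among protein coding genes with an average log2 CPM of 1 or more, the 5 with the largest differences between days 6 and 8 in each direction are given here. The effect became more negative at day 8 for NELL1 (difference of log2 fold changes -3.289), ARHGAP22 (-2.597), HBEGF (-2.37), SCN3B (-2.007) and IL6R (-1.988). It became more positive for CSMD1 (2.819), FIBIN (3.001), C7 (3.002), SST (3.008) and TMOD1 (3.059). SST was also the gene that differed between days 8 and 10, with a difference of -3.27. Leaving out any 1 library or changing the test kept the adjusted p of these differences under 0.05, except for SCN3B, which was called in 12 of 16 alternatives with an adjusted p of up to 0.0619.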

How the results depend on the processing

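Of 288 called genes that the naming rule covers, 184 were called under every alternative fit with a value. The minimum absolute log2 fold change of 1 was not counted among these alternatives. Of the 3728 alternative values of the 288 genes, 3372 stayed on the same side of the threshold, 356 fell short of it and 0 changed direction. The day 8 count was 2752 as reported, 3308 with DESeq2, 2755 with RLE size factors, 3799 without a filter, 2540 with a mean of at least 50 counts and 2216 with limma-trend. It moved by more than 1.5 times in 1 fit over all 33 libraries, to 1599 (824 higher, 775 lower), and with a minimum absolute log2 fold change of 1, to 1078 (630 higher, 448 lower). With 1 library left out the day 8 count ran from 1321 to 4732, with 569 to 2459 higher and 725 to 2273 lower. The day 6 count ran from 348 to 915 and the day 10 count from 11 to 3768, and DESeq2 gave 1765 at day 10. The count of differences between days 6 and 8 was 254 with DESeq2, 529 without a filter and 44 to 254 with 1 library left out. That between days 8 and 10 was 20 with DESeq2, 2 without a filter and 1 to 17 with 1 library left out. With the replicate number as a block, a fit that assumes a pairing the libraries did not show, the day 8 count was 2966, that between days 6 and 8 was 58 and that between days 8 and 10 was 1. The cause of these shifts was not tested. Genes with a few counts per library, such as LHX9, NR5A1, TSPAN8 and DHH, are limited by depth.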
